A study of Mus musculus with 24 samples.

Results

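Acylceramides are the signature lipids of the epidermal permeability barrier. In granular keratinocytes a fatty acid is extended to ultra-long length, hydroxylated at its far end, joined to a sphingoid base and esterified with linoleic acid. The product is glucosylated, packed into lamellar bodies and secreted, and its linoleate is then oxidised so that the lipid can be bound to the cornified envelope. Loss of several genes of this route causes ichthyosis in people, and for some of them a lethal loss of the barrier in newborn mice. The 10 genes described here were chosen by their place in that route, by a rule that uses no measured value, although earlier results of these data were known when they were chosen. Elovl4, Cyp4f39, Cers3, Pnpla1, Abhd5 and Nipal4 stand for acylceramide synthesis, Abca12 for lamellar body loading, and Alox12b, Aloxe3 and Sdr9c7 for lipid envelope oxidation. All 10 were among the 54087 gene symbols of the count table and all 10 were among the 17094 genes that passed the filter on low counts.

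Dorsal skin was taken from mouse embryos at E18.5 that were wild type (WT), heterozygous (HET, Dsg1+/-) or null (KO, Dsg1-/-) for the desmoglein 1 locus, whose genes encode a desmosomal cadherin of the upper epidermis. Per the study's methods, the tandem Dsg1 genes were removed by CRISPR in C57BL/6 mice, the line came from 1 founder that was backcrossed, and animals of both sexes were used. The labels name no other allele or treatment for any group. There were 8 libraries per genotype, and libraries that shared a title number and genotype were summed, which left 5 columns per genotype, called replicates 1 to 5 here. Nothing in the labels says that the title numbers are separate embryos, so p-values measure the spread between these samples, which may in part be technical.

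The 24 libraries held 8976020 to 20964721 counts each and the summed columns 15279289 to 33681853. The lowest count of any of the 10 genes in any column was 618 (Cyp4f39), so counting error was small beside the spread between replicates. Summed over Dsg1a, Dsg1b and Dsg1c, the targeted genes stood at 806 ± 112 CPM in WT (SD, n = 5; CPM, counts-per-million of the TMM-adjusted library size), at 422 ± 51.5 in HET and at 0.548 ± 0.343 in KO, so each group matched its genotype label. In 8 of the 9 numbers with 2 libraries the repeat libraries were alike: chi-square divided by its degrees of freedom was 1.59 to 1.86, against a median of 31.7 for libraries of different numbers. Number 35, which is WT replicate 2, held libraries that differed (15.6), and of these only 1 expressed Y-linked genes and only the other Xist. WT replicate 2 thus sums libraries with opposite sex markers and counts as 1 replicate. Values without either of its libraries stand with the limits at the end. Defining markers of every layer were present in all 15 columns: all 4 basal, 4 spinous and 5 granular markers were above 0, as were the 6 skeletal muscle, 6 dermal and 4 adipocyte markers.

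The genes lie on 6 chromosomes of the mouse build GRCm38, here with the gene models of GENCODE vM21. Abca12 is at chr1:71242276-71414910 on the minus strand, Cers3 at chr7:66743504-66823691, Elovl4 at chr9:83778692-83806277 on the minus strand and Abhd5 at chr9:122351608-122381524. Sdr9c7 is at chr10:127898518-127911761, Nipal4 at chr11:46148155-46166508 on the minus strand, Pnpla1 at chr17:28858411-28890309 and Cyp4f39 at chr17:32452723-32493320. The lipoxygenase genes are neighbours on the plus strand, Aloxe3 at chr11:69125896-69149115 and Alox12b at chr11:69156989-69169792, with 7873 bases between them. Genes on the opposite strand overlap exons of Pnpla1 (Pnpla1os) and Abhd5 (A730085K08Rik). Pnpla1os had 0 to 8 counts per column, or 0.133% of the counts of Pnpla1, and A730085K08Rik has no row under that symbol. Whether the counting used strand is not given in the sources used here, so reads of such overlapping pairs could not be told apart. Cyp4f39 has close relatives in the Cyp4f family, and the treatment of reads that match several of them is likewise not given.

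Because the 10 genes moved together between samples, as shown further on, their promoters were read from RefSeq (GRCm38.p6; 250 bases before to 50 after the start), which held 9 of the 10. The shared letters are shown for Cers3 and Abhd5, the genes with the smallest p-values KO vs WT, and beside them Sdr9c7 and Alox12b. Each run is the 150 bases before the RefSeq start on the strand of the gene. The capitals mark matches on either strand to one of the motifs given after the runs. For Abhd5, Sdr9c7 and Alox12b the RefSeq start lies inside the GENCODE gene given above, and so do the marked letters of Alox12b. The runs lie at chr7:66743354-66743503, chr9:122351466-122351615, chr10:127898385-127898534 and chr11:69156922-69157071, all on the plus strand.
Cers3: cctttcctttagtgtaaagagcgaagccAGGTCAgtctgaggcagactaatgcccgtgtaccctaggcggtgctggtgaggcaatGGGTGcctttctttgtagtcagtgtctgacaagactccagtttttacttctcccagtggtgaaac
Abhd5: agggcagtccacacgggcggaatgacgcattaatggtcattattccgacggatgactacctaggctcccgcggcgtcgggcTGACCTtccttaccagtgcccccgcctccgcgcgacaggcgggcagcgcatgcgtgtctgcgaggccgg
Sdr9c7: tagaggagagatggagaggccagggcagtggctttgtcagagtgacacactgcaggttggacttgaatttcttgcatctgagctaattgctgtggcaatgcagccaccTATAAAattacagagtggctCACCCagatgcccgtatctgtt
Alox12b: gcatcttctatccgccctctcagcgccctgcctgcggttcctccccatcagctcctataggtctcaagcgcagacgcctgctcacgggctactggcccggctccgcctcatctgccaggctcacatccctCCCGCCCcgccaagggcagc

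The nuclear receptor half-site AGGTCA was held by Cers3 and Abhd5, 2 of 9 promoters, and by 18.1% of the 27025 genes with a promoter. CACCC, the core letters of KLF sites, stood in 5 of 9 (Alox12b, Cers3, Pnpla1, Nipal4 and Sdr9c7; 59.8% of genes). CCCGCCC, the letters of Sp factors, stood in 3 of 9 (Alox12b, Elovl4 and Nipal4; 27.9%), and the TATA letters TATAAA in Sdr9c7 alone (15.7%). The C/EBP letters TTGCNNAA were held by Pnpla1 and Nipal4 (12.2%). No match to the AP-1 letters TGANTCA (8.97% of genes) or to the Grainyhead-like letters AACNNGTT (4.77%) was found in the 9 windows. The promoters of Elovl4, Nipal4, Abhd5 and Alox12b were rich in G and C (66% to 71%, with 15 to 35 CpG) and those of Abca12, Cers3 and Sdr9c7 were near the median of all promoters (52.7%) at 50.7% to 51.3%. A match is a description of letters and not a site of binding.

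Levels can be compared between genes per length only, here as CPM per kilobase of merged exons. In WT skin Elovl4 was the most abundant at 147 ± 26.7 CPM per kilobase (SD, n = 5), followed by Alox12b at 102 ± 35.2 and Sdr9c7 at 76.6 ± 10.8. The ranges of neighbours in this order overlapped. Cers3 came next at 34.4 ± 4.37 and overlapped neither Sdr9c7 above it nor Nipal4 (20.4 ± 3.52) below it. Nipal4 began a lower group in which each range overlapped the next. Below it came Abhd5 (16.9 ± 0.672), Cyp4f39 (15.4 ± 6.36), Pnpla1 (14.1 ± 2.98), Abca12 (13.9 ± 3.83) and Aloxe3 (12.1 ± 2.75). The order in HET and KO was the same down to Abhd5 at the sixth place. Aloxe3 had the lowest mean in all 3 genotypes, with a range that overlapped that of the gene above it. The order depends on the merged exon length, which was 6397 bases for Aloxe3 and 2431 for Alox12b.

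The question of the main comparison is whether the barrier lipid route differed in skin without Dsg1. KO vs WT, the mean level was higher in KO for 9 of the 10 genes and lower for Aloxe3, with log2 fold changes from -0.19 to 0.63 and a median of 0.39 beside -0.0095 over all genes tested. None of the 10 passed the test. With the quasi-likelihood test of edgeR, 0 of 10 were called (log2 fold change of at least 1 in either direction, adjusted p no higher than 0.1), against 0.322% of all genes, and 0 of 10 passed at the adjusted p alone, against 1.15%. An unadjusted p under 0.05 was reached by 5 of 10 (19.3% of all genes), all higher in KO: Cers3, Abhd5, Elovl4, Nipal4 and Abca12. With limma-voom 0 of 10 passed at the adjusted p alone, and with DESeq2 3 did (Cers3, Abhd5 and Elovl4). The share of all genes that passed with either tool is not given here, so the 3 have no background. DESeq2 also passed more genes of the rest of the route, read further on, as higher: 18 in place of 3. Groups did not overlap in CPM for 1 of 10, Abhd5, against 3.37% of all genes. In bulk skin, more cells that make these transcripts and more transcript per cell cannot be told apart.

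**Figure D1:**
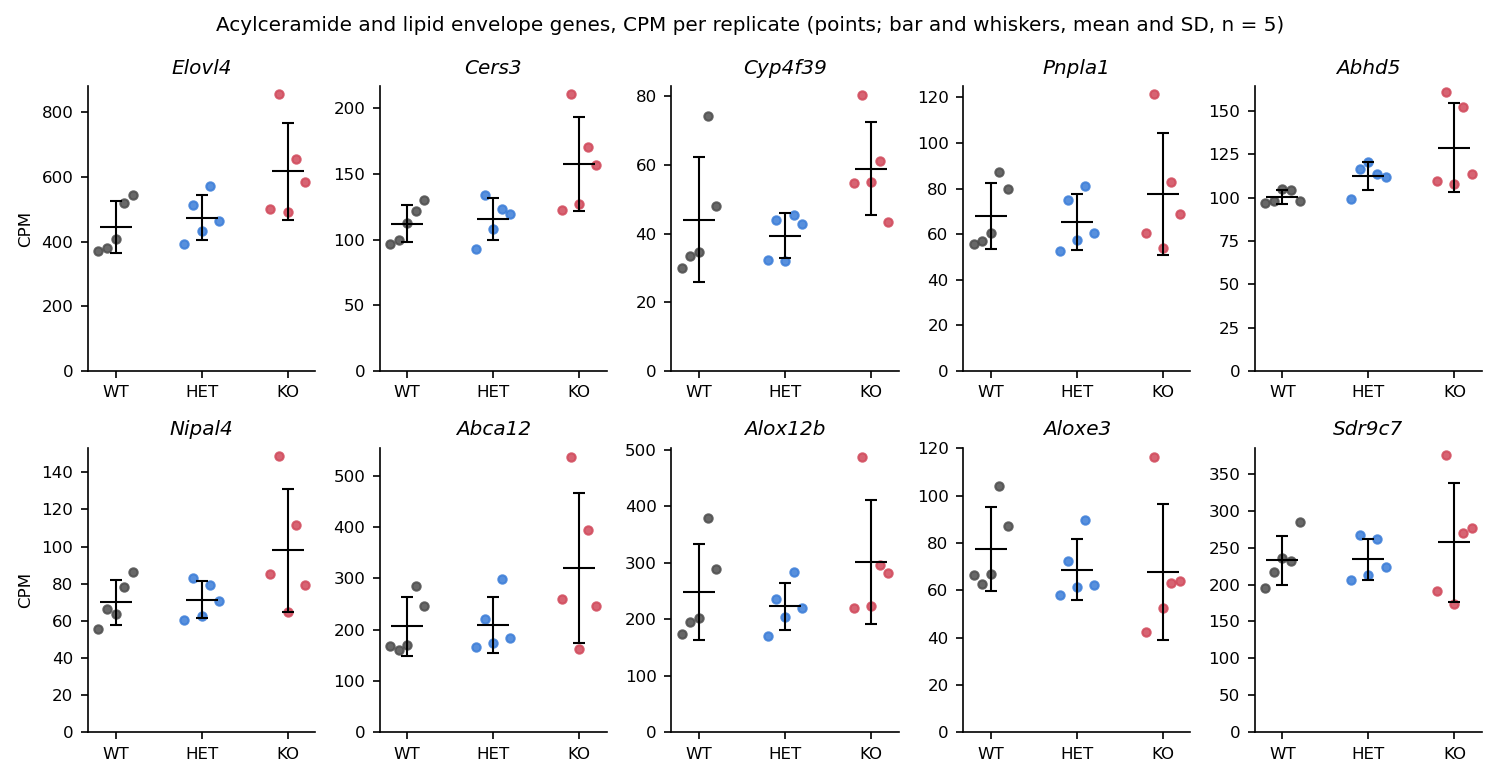
CPM of each of the 10 genes in each of the 15 replicates (points, grouped by genotype; bar and whiskers, mean and SD, n = 5). The highest KO point is the same replicate in all 10 panels, and only the Abhd5 panel shows WT and KO points that do not overlap.

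Elovl4 is the elongase that makes the ultra-long acyl chains. Its CPM was 372, 379, 410, 518 and 544 in WT replicates 1 to 5, 394, 512, 432, 571 and 463 in HET, and 502, 857, 491, 654 and 584 in KO. The KO values overlapped the upper WT values, and 3 of 5 KO replicates lay above all WT replicates. The log2 fold change KO vs WT was 0.47 ± 0.16 (SE; edgeR adjusted p = 0.144), or 1.39-fold. Cyp4f39, the mouse counterpart of the omega-hydroxylase CYP4F22, had the widest relative spread in WT, from 30.0 to 74.2 CPM with a median of 34.7. In KO it ranged from 43.4 to 80.3 CPM (median 55.1), and the change was 0.42 ± 0.23 (adjusted p = 0.317).

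Cers3 is the ceramide synthase that joins the ultra-long acyl chain to the sphingoid base. It stood at 96.6, 99.6, 113, 122 and 130 CPM in WT replicates 1 to 5, at 92.7, 134, 108, 124 and 119.5 in HET, and at 123, 211, 127, 170 and 156 in KO. The lower KO replicates fell within the WT range and 3 of 5 lay above it. With 0.49 ± 0.14 (1.41-fold) it had the smallest adjusted p of the 10 genes KO vs WT (edgeR, 0.111).

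Pnpla1 is the transacylase that moves linoleate onto the omega-hydroxyceramide, and Abhd5 (CGI-58) is its co-activator, which also activates the triglyceride lipase Pnpla2 (ATGL). Pnpla1 ranged from 55.9 to 87.1 CPM in WT, from 52.5 to 81.3 in HET and from 53.9 to 121.5 in KO (medians 60.5, 60.5 and 69.1), and the groups overlapped (0.19 ± 0.20, adjusted p = 0.621). Abhd5 had the least spread in WT, with 97.0, 98.1, 105, 105 and 97.9 CPM. It stood at 99.5, 117, 121, 114 and 112 in HET and at 110, 161, 108, 152 and 114 in KO. All 5 KO replicates lay above the WT maximum, 3 of them narrowly, with a log2 fold change of 0.36 ± 0.11 (edgeR adjusted p = 0.121), or 1.28-fold.

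Abhd5 is also made by fat cells, and adipocyte markers differed strongly between replicates. The sum of Adipoq, Plin1, Cidec and Fabp4 was 312 to 978 CPM in WT, 526 to 3616 in HET and 462 to 4816 in KO. It was highest in KO replicate 4 (4816), HET replicate 3 (3616) and KO replicate 2 (1375). Abhd5 was highest in KO replicates 2 and 4, and HET replicate 3 was the highest HET replicate. All 4 markers were above 0 in all columns and were on average higher in KO than in WT (log2 fold changes 1.32 to 2.65, adjusted p = 0.214 to 0.347). Across the 15 columns Abhd5 went with the adipocyte score at Pearson's r = 0.714, whereas the other 9 genes ranged from -0.217 to 0.298. Abhd5 went with the mean of the granular markers about as closely (r = 0.729), where the other 9 genes ranged from 0.621 to 0.928. With the adipocyte score as a covariate, chosen after the data were seen, Abhd5 stood at 0.21 KO vs WT (edgeR adjusted p = 0.342). In the same fit Cers3 stood at 0.47 (0.224) and Elovl4 at 0.51 (0.231). The part of fat cells in the difference of Abhd5 was not tested otherwise. Pnpla2 followed the same columns more steeply, with 26.3 to 89.4 CPM in WT and 40.7 to 695.5 in KO.

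Nipal4 (ichthyin), a membrane protein needed for acylceramide formation, ranged from 55.6 to 86.3 CPM in WT and from 64.8 to 149 in KO. The groups overlapped and 2 of 5 KO replicates lay above WT (0.48 ± 0.19, adjusted p = 0.190). Abca12, the transporter that loads glucosylated ceramides into lamellar bodies, had the largest fold change of the 10 and also the largest error, 0.63 ± 0.28 (adjusted p = 0.240). It stood at 169, 160, 170, 286 and 247 CPM in WT and at 260, 536, 163, 394.5 and 246 in KO. KO replicate 3 lay at the bottom of the WT range and KO replicates 2 and 4 above it.

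Alox12b and Aloxe3 act in sequence on the linoleate of the acylceramide, and Sdr9c7 is the dehydrogenase of the step after them. Alox12b stood at 174, 194.5, 203, 379 and 289 CPM in WT, at 170, 236, 204, 284 and 221 in HET and at 219, 488, 224, 295.5 and 283 in KO. Aloxe3 stood at 66.7, 62.6, 67.05, 104 and 87.3 in WT, at 58.2, 72.5, 61.3, 89.7 and 62.2 in HET and at 42.3, 116.5, 52.7, 63.1 and 64.1 in KO. For both genes KO replicate 2 was the highest of all 15 columns, but the other 4 KO replicates of Aloxe3 lay below the WT median of 67.05. The changes KO vs WT were 0.28 ± 0.24 for Alox12b (adjusted p = 0.524) and -0.19 ± 0.23 for Aloxe3 (adjusted p = 0.659). Sdr9c7 ranged from 195 to 284 CPM in WT and from 173 to 375 in KO (0.14 ± 0.17, adjusted p = 0.657).

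**Figure D2:**
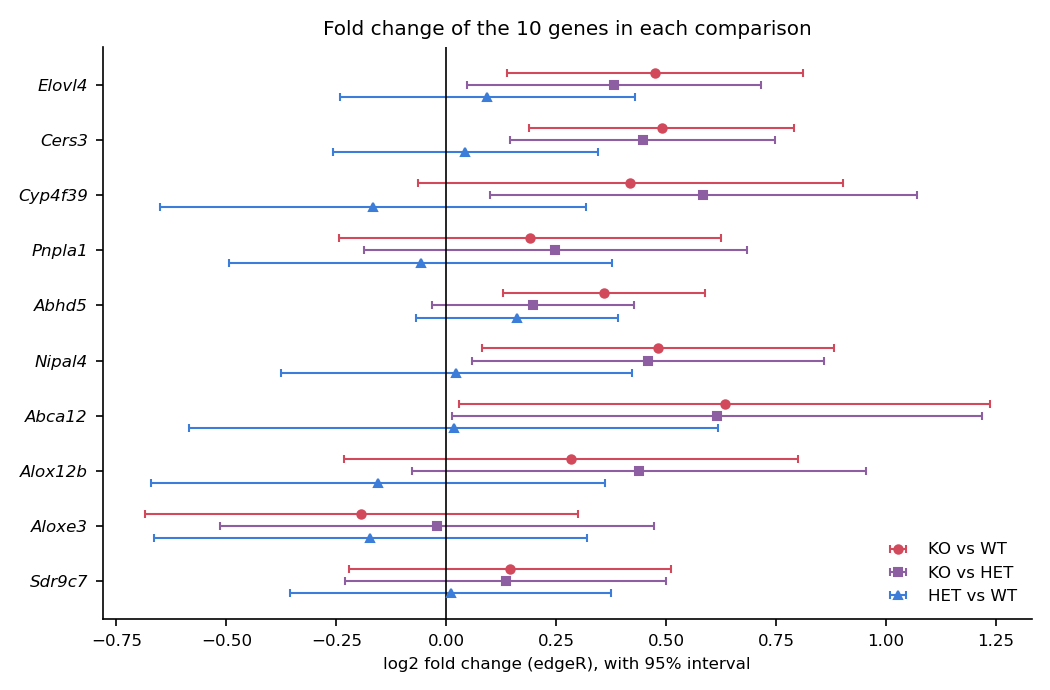
Log2 fold change of the 10 genes (x axis) in the 3 comparisons, each with its 95% interval from the edgeR fit. KO vs WT and KO vs HET estimates lie to the right of 0 for 9 genes and to the left for Aloxe3, while HET vs WT estimates scatter around 0.

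The 95% intervals bound what could have been missed. KO vs WT, the upper bound of the log2 fold change was below 1 for 9 of the 10 genes and reached 1.24 for Abca12. For Aloxe3 the interval ran from -0.69 to 0.30. A change of 2-fold, the size required of a call, thus lay outside the interval of 9 genes.

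The balance of the lipoxygenase genes was examined as the ratio of Aloxe3 to Alox12b counts within a column, which does not depend on how libraries are scaled. WT replicates held 38.2, 32.2, 33, 27.4 and 30.2 Aloxe3 counts per 100 Alox12b counts and HET replicates 34.3, 30.8, 30.1, 31.5 and 28.2. KO replicates held 19.3, 23.9, 23.5, 21.4 and 22.7, so that every KO replicate lay below every WT and every HET replicate. The mean log2 ratio was -2.18 ± 0.13 in KO (SD, n = 5), -1.69 ± 0.10 in HET and -1.64 ± 0.18 in WT. The ratio in KO was 69.0% of that in WT and 71.4% of that in HET (two-sided exact permutation tests, p = 0.00794 each, which is the smallest p that 5 against 5 allows; adjusted over 6 tests, 0.0238). HET and WT differed by -0.049 on the log2 scale (exact permutation p = 0.627, adjusted 0.752). In the 3 KO columns with Y-linked transcripts the ratio was 21.4 to 23.9 per 100 and in the 2 without them 19.3 to 22.7. WT columns of either kind held 27.4 to 38.3, where the mixed WT replicate 2 was counted as a column with Y-linked transcripts. The libraries of either title format, called series 1 and series 2, gave log2 differences KO vs WT of -0.50 (series 1, n = 3 each, where the smallest exact p is 0.1) and -0.52 (series 2, n = 5 each).

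The lower ratio was seen for Aloxe3 against most of the other genes too. Over all 45 pairs of the 10 genes, given as a description, the ratio did not overlap between KO and WT in 8 pairs, and Aloxe3 took part in 6 of these. Between HET and WT 2 of 45 pairs did not overlap, and between KO and HET 3 of 45, of which Aloxe3 was in 2. The share of such pairs over all genes was not computed, so these counts have no background to be judged by. The ratio of Pnpla1 to Abhd5, the enzyme and its co-activator, overlapped in all comparisons. It was 57.5 to 83.3 Pnpla1 counts per 100 Abhd5 counts in WT, 47.6 to 71.6 in HET and 49.8 to 75.3 in KO. The log2 differences were -0.19 KO vs WT (exact permutation p = 0.222), -0.21 HET vs WT (0.230) and 0.026 KO vs HET (0.865), with adjusted values of 0.345, 0.345 and 0.865.

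**Figure D3:**
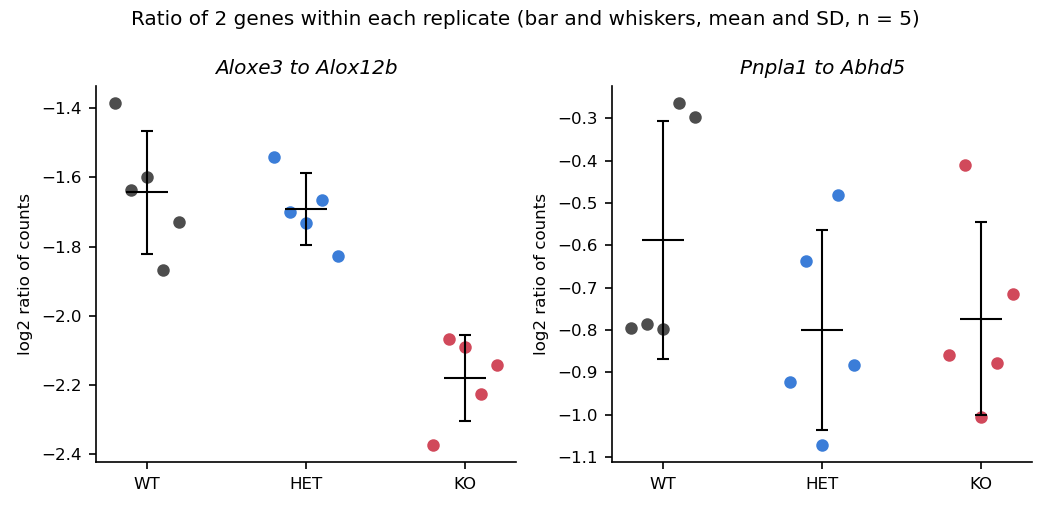
Log2 ratio of counts of Aloxe3 to Alox12b and of Pnpla1 to Abhd5 in each replicate (points; bar and whiskers, mean and SD, n = 5). All 5 KO points of the lipoxygenase ratio lie below all WT and HET points, and the groups of the other ratio overlap.

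HET vs WT asks whether loss of 1 copy of the locus moved the route. None of the 10 genes passed any threshold: 0 of 10 were called (0% of all genes), 0 of 10 passed at the adjusted p alone (0%) and 0 of 10 had an unadjusted p under 0.05 (1.58%), nor did any pass with DESeq2 or limma-voom. The groups overlapped for all 10 (0.374% of all genes did not). Log2 fold changes ran from -0.17 for Aloxe3 to 0.16 for Abhd5 with a median of 0.0135, and the 95% intervals lay between -0.67 and 0.62. Abhd5 came nearest to a separation, with 4 of 5 HET replicates above the WT maximum.

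KO vs HET shares the KO columns with KO vs WT, so its values stand beside those above and do not add to them. 0 of 10 genes were called (0.181% of all genes), 0 of 10 passed at the adjusted p alone (0.333%) and 5 of 10 had an unadjusted p under 0.05 (16.0%). The groups overlapped for all 10 (2.25% of all genes did not). With DESeq2 1 of 10 (Cers3) and with limma-voom 0 of 10 passed at the adjusted p alone. The share over all genes is not given for these tools. The median log2 fold change was 0.41. Abca12 had 0.62 ± 0.28 (adjusted p = 0.303), Cyp4f39 0.58 ± 0.23 (0.239), Nipal4 0.46 ± 0.19 (0.255), Cers3 0.45 ± 0.14 (0.180), Alox12b 0.44 ± 0.24 (0.386) and Elovl4 0.38 ± 0.16 (0.259), all by edgeR. Pnpla1 (0.25), Abhd5 (0.20), Sdr9c7 (0.13) and Aloxe3 (-0.021) were nearer to 0, and Aloxe3 stood at 0.11 in series 1 alone.

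The 10 genes shared much of the spread between replicates of a genotype. Repeat libraries of a number, without number 35, differed by a median of 0.035 in log2 CPM over the 10 genes (at most 0.21), whereas replicates of a genotype differed by a median of 0.34 (at most 1.72). The log2 fold change was larger in size than that median for 6 of 10 genes KO vs WT, 6 of 10 KO vs HET and 0 of 10 HET vs WT. A fold change compares groups of 5, and that median compares single replicates over all 10 genes. The counts are thus a description and do not weigh a gene against its own spread. Over the 15 columns the 45 pairs of genes had a median Pearson's r of 0.808 (0.291 to 0.960), and with the mean of each genotype removed 0.841 (0.458 to 0.982). Each gene followed the mean of the other 9 at r = 0.744 to 0.964, other than Aloxe3 at 0.623, with genotype means kept. The pairs of Aloxe3 had r = 0.291 to 0.817, and 0.663 to 0.942 with genotype means removed. The lowest pair was then Cyp4f39 with Abhd5 (0.458), so Aloxe3 did not stand apart within genotypes. The sum of the 10 was 1312 to 1986 CPM in WT, 1332 to 1948 in HET and 1513 to 3095 in KO. The highest was KO replicate 2, followed by KO replicate 4 (2255) and WT replicate 4 (1986), and KO replicate 3 (1513) lay below WT replicate 5 (1893).

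These sums went with other markers of the upper epidermis. Over the 15 columns the mean log2(CPM + 1) of the 10 genes went with that of the spinous markers Krt1, Krt10, Krtdap and Sbsn at r = 0.985 (Spearman's rho 0.964), and at 0.961 without the 2 columns farthest from the median. For the granular markers Flg, Lor, Flg2, Hrnr and Cdsn the values were 0.893, 0.725 and 0.757, and for the basal markers 0.628, 0.679 and 0.650. Skeletal muscle markers went the other way (-0.878, -0.771 and -0.704), while dermal (-0.289) and adipocyte markers (0.130) showed little relation. These correlations describe 15 columns that share libraries and scaling, and a larger share of one tissue lowers the share of the others by construction. The spinous sum was 49125 to 70262 CPM in WT, 50332 to 66367 in HET and 63179 to 89882 in KO, and the muscle sum was 11500 to 19934, 12912 to 18670 and 8860 to 17289. None of the spinous, granular or muscle markers passed the test KO vs WT.

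**Figure D4:**
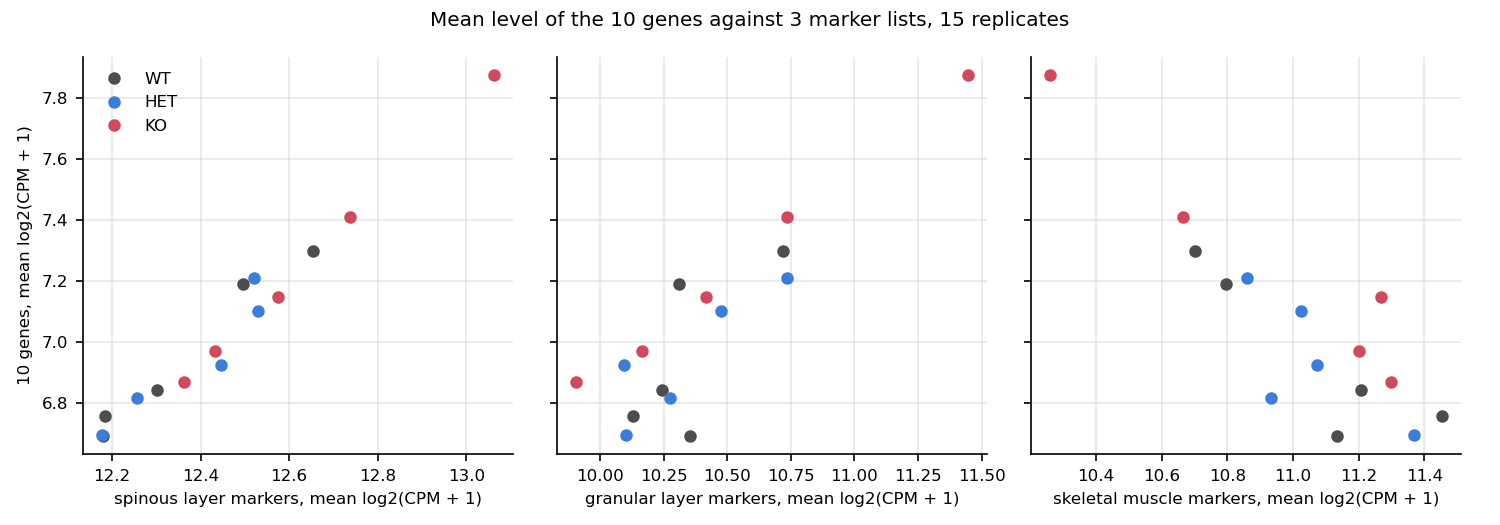
Mean log2(CPM + 1) of the 10 genes (y axis) against that of spinous, granular and skeletal muscle markers (x axes) in 15 replicates coloured by genotype. Points of all genotypes share a rising band for the spinous and granular markers and a falling one for muscle, and 1 KO replicate stands at the end of each.

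The values per gene at an equal level of those markers were taken from fits with the marker score as a covariate, chosen after the data were seen apart from that for muscle. With the spinous score, the median change of the 10 genes KO vs WT was 0.049 in place of 0.39, and 6 of 10 were above 0. Aloxe3 was lower in KO (log2 fold change -0.68, edgeR adjusted p = 0.00941). That score went with the mean of the 10 genes at r = 0.985, so the fit takes out most of what they share. A small median is thus built in. The Aloxe3 value is relative to the other genes and is not a separate test of its level. With the granular score the median was 0.29, Elovl4 (0.34, adjusted p = 0.0814), Cers3 (0.38, 0.0640) and Abhd5 (0.27, 0.0884) passed as higher, and Aloxe3 as lower (-0.41, 0.0731). With the muscle score the median was 0.31 and Elovl4 (0.0452), Cers3 (0.0453) and Abhd5 (0.0734) passed. The granular and muscle scores also went with the mean of the 10 genes (r = 0.893 and -0.878). These fits thus take out much of what the genes share as well, and their values are not separate tests of level. The share of all genes that passed in them is not given here. Without KO replicate 2 the median was 0.27, Pnpla1 (-0.032) and Sdr9c7 (-0.032) turned below 0 and Aloxe3 stood at -0.48 (adjusted p = 0.2003).

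The 8 genes outside the list whose profile was most like the mean of the 10 over the 15 columns were Dmkn (r = 0.986), Fndc9 (0.974), C2cd2 (0.970), Pld2 (0.959), Cds1 (0.957), Pvrl4 (0.956), Csnk2a2 (0.956) and Casp14 (0.954). Dmkn encodes dermokine, a secreted protein of the upper epidermis, and Casp14 the caspase of cornification. In all, 85 genes outside the list exceeded r = 0.9.

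The rest of the route was read from 5 lists with 78 genes, of which 77 were tested. KO vs WT, 3 passed as higher and 1 as lower at the adjusted p alone (1.15% of all genes), and none was called at a log2 fold change of 1. The median change was 0.22, with 66 of 77 above 0 (48.6% of all genes). Epidermal markers outside the route moved alike: spinous 4 of 4 above 0 (median 0.27), granular 5 of 5 (0.21) and basal 3 of 4 (0.095). Dermal markers had 0 of 6 above 0 (-0.235) and muscle markers 1 of 6 (-0.096). Grhl3, a transcription factor required for barrier formation, rose 1.70-fold (log2 fold change 0.76 ± 0.13, edgeR adjusted p = 0.0185). It stood at 49.2, 53.2, 55.6, 58.2 and 56.2 CPM in WT, at 49.4, 67.0, 51.2, 68.25 and 62.45 in HET and at 88.3, 119, 92.5, 94.1 and 68.3 in KO. The KO replicates did not overlap those of WT (3.37% of all genes did not). Against HET the groups only just failed to overlap, with a lowest KO value of 68.27 and a highest HET value of 68.25 CPM (2.25% of all genes did not overlap). Grhl3 also rose KO vs HET (0.63 ± 0.13, adjusted p = 0.0733), where it was the only gene of the 77 that passed. That call was lost in 7 of 15 fits that left out 1 replicate (WT replicates 2 or 3, HET 1, 3 or 5, KO 1 or 4), with log2 fold changes of 0.52 to 0.72 and adjusted p-values of 0.0256 to 0.227.

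Among the genes of lipid attachment and oxidation, 2 of 13 passed as higher KO vs WT at the adjusted p alone (1.15% of all genes passed). Groups did not overlap for 4 of 13, Ivl, Ephx3, Tgm5 and Sult2b1 (3.37% of all genes did not). Ivl, involucrin, which is a protein scaffold to which the ceramides are bound, stood at 510 ± 38.5 CPM in WT, 648 ± 45.5 in HET and 866 ± 207 in KO (KO vs WT 0.76 ± 0.13, edgeR adjusted p = 0.0231). Its HET replicates (601 to 722) did not overlap those of WT (482 to 576) either (0.374% of all genes did not). The edgeR adjusted p was 0.9998 HET vs WT. Ephx3, an epoxide hydrolase that acts on the products of the lipoxygenases, stood at 42.04 ± 4.28 in WT and 67.0 ± 17.0 in KO without overlap (0.67 ± 0.14, adjusted p = 0.0648). Ephx3 failed to pass in 5 of 15 fits that left out 1 replicate (WT replicates 1, 2 or 3, KO 1 or 4; adjusted p up to 0.178), and Ivl and Grhl3 passed in all 15 KO vs WT. Sult2b1, the cholesterol sulfotransferase, was 1.43-fold higher in KO without overlap and missed the threshold (adjusted p = 0.102). Tgm5 was likewise 1.43-fold higher and missed it (edgeR adjusted p = 0.102).

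Of the 20 tested genes of backbone synthesis and elongation, Ormdl1 fell, from 30.6 ± 5.05 CPM in WT to 19.5 ± 5.02 in KO (-0.65 ± 0.16, edgeR adjusted p = 0.0929). Ormdl1 is a regulator that restrains serine palmitoyltransferase. It was 14.9 to 26.85 CPM in KO and 22.2 to 34.8 in WT, with 3 of 5 KO replicates below all of WT. The call was not stable: Ormdl1 failed to pass in 10 of 15 fits that left out 1 replicate (WT replicates 1, 2, 3 or 5, HET 1, 2, 3 or 5, KO 1 or 4), with log2 fold changes of -0.80 to -0.57 and adjusted p-values of 0.0180 to 0.215. The other 19 had adjusted p-values above 0.1, among them Degs1 (0.36, 0.102) and Elovl6 (0.41, 0.110), and the median of the list was 0.26. None of 12 genes of ceramide processing passed (median 0.12), with Smpd1, the acid sphingomyelinase of the lamellar bodies, at 0.39 (adjusted p = 0.154) and B4galnt1 at 0.28 (0.276). None of 14 genes of lamellar body trafficking passed (median 0.11), with Myo5b at 0.68 (0.110) and Spink5 at 0.39 (0.228). Of 18 barrier regulators only Grhl3 passed, and the median was 0.29. Ppara had the largest fold change (2.46) with an adjusted p of 0.296, and was 100 CPM in KO replicate 4, 38.9 in HET replicate 3 and at most 10.2 in every other column, the columns with the highest adipocyte markers.

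**Figure D5:**
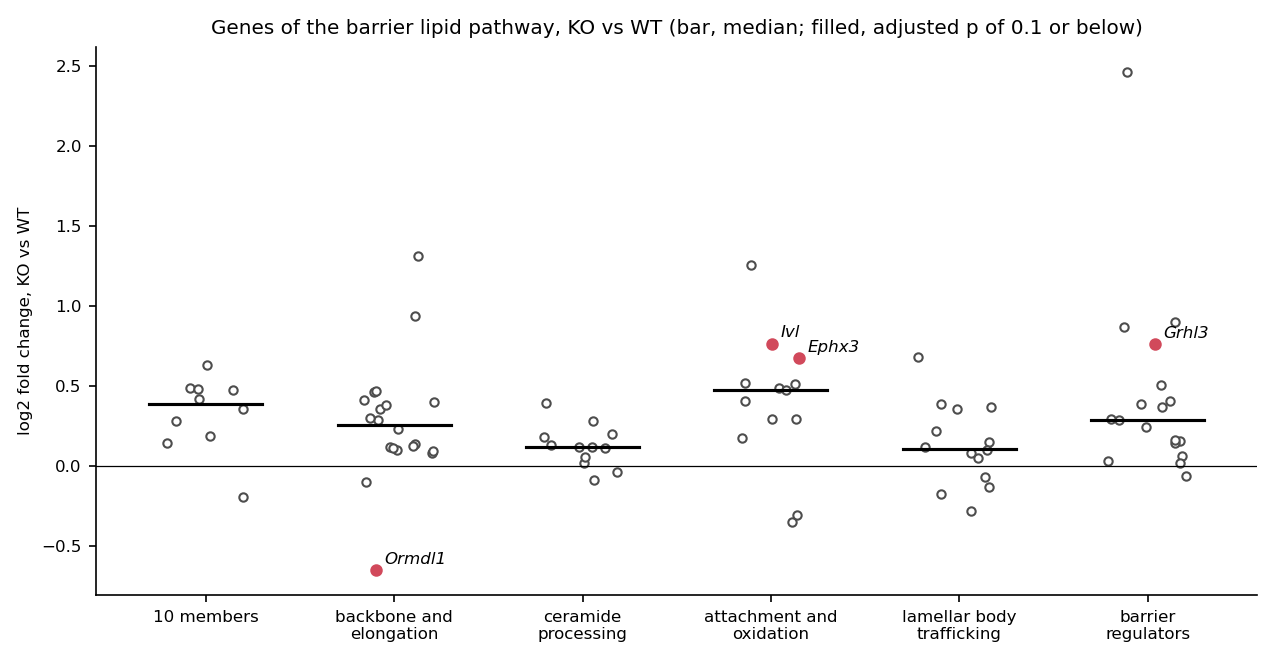
Log2 fold change KO vs WT (y axis) of the 10 genes and of the 77 other tested genes of the route by list (points; filled, edgeR adjusted p of 0.1 or below; bar, median). Every median lies above 0, and the filled points are Ormdl1, Ivl, Ephx3 and Grhl3.

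Of the close relatives of the 10 genes, 38 of 48 were tested and none passed in any comparison by edgeR (KO vs WT median 0.13, with 6 of 38 at an unadjusted p under 0.05, where all genes stood at 19.3%). The relatives with the highest mean CPM over the 15 columns were Elovl1, an elongase of shorter chains, at 572 ± 115 CPM in WT and 621 ± 149 in KO (0.12 ± 0.16, edgeR adjusted p = 0.687), Elovl7 at 155 ± 22.3 and 201 ± 48.6 (0.38 ± 0.16, 0.205), and Pnpla2 at 48.1 ± 24.6 and 219 ± 276 (2.18 ± 0.87, 0.205). Pnpla2 ranked there through KO replicate 4 (695.5 CPM) and HET replicate 3 (387.9). In WT it lay below other relatives such as Pnpla8 (106.5 CPM) and Elovl6 (84.35). HET vs WT, 0 of 77 genes of the route passed (edgeR; 1 had an unadjusted p under 0.05, Ivl), and the values lay between -0.14 and 1.27, the latter for Ppara. The smallest p-values after Ivl belonged to Acsl1 (0.45) and Sptlc2 (0.091) in the backbone list, Acer1 (0.10) and B4galnt1 (-0.14) in ceramide processing, Ephx2 (0.83) in oxidation, Myo5b (0.13) and Vps33b (-0.052) in trafficking, and Nr1h3 (0.64) and Pparg (0.63) among the regulators, as log2 fold changes.

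KO vs HET, the same reading of the route gave 65 of 77 genes above 0 (49.3% of all genes) with a median of 0.20. Ormdl1 stood at -0.68 ± 0.16 (edgeR adjusted p = 0.116), Degs1, the desaturase of sphingoid base synthesis, at 0.39 ± 0.095 (0.127) and Sult2b1 at 0.58 ± 0.13 (0.111). Ephx3 (0.57, 0.133), B4galnt1 (0.42, 0.183), Smpd1 (0.36, 0.232), Myo5b (0.55, 0.203) and Klk5 (0.39, 0.246) had the smallest p-values of their lists and did not pass.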

How the data were processed

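The deposited table held raw counts per gene symbol for 24 libraries. Per the labels, RNA was enriched for poly(A) and made into directional libraries, and the submitters' processing notes name STAR, HTSeq and hg19, a human build, although the symbols are those of mouse. Versions, annotation and the use of strand are not given in the sources used here. Coordinates are therefore those of GENCODE vM21 and RefSeq on GRCm38, and not of the deposited files.

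Libraries of 1 title number and genotype were summed to 15 columns. Title formats are called series 1 (9 libraries) and series 2 (15). The filterByExpr function kept 17094 genes, with TMM scaling, and edgeR 4.0.16 gave quasi-likelihood tests (R 4.3.3; robust, 3 genotypes in 1 fit, Benjamini-Hochberg adjustment over all genes). The SE is the fold change (log2) divided by the root of F. Calls used the study's thresholds, an adjusted p of 0.1 and a log2 fold change of 1. CPM use the TMM-adjusted library size. Ratios used counts + 0.5 and two-sided exact permutation tests (scipy 1.17.1) over 252 arrangements. DESeq2 1.42.0 and limma 3.58.1 (voom) were alternatives, beside other scaling, filters, library units, covariates and left-out replicates. The script was tested on simulated data.

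The 10 genes, the lists and the markers were chosen with earlier results of these data known. Named are the 10 genes, every route gene whose adjusted p was at most 0.1 and otherwise the 2 of each list with the smallest p, the 3 relatives with the highest mean CPM over all columns and the 8 most alike profiles. Sult2b1, Tgm5, Degs1, Elovl6, Pnpla8 and Ppara, and the adipocyte values, were named after their values were seen.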

Additional observations from a re-analysis of the deposited data

Results flagged for a closer look

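Of 39 groups of 5 replicates (a gene, a ratio or the mean of the 10 genes within a genotype), 1 had an extreme replicate, where about 1 in 20 groups would by chance, or 1.95. It was Alox12b in KO replicate 2, at 488 CPM, whose gap to the next KO replicate took 0.716 of the range of the group. The same replicate was the highest of the 15 columns for all 10 genes and for the granular and spinous scores, and the lowest for the skeletal muscle score. Whether this replicate differs in tissue make-up was not tested.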

How the results depend on the processing

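No paired analysis was possible because no title number occurs in more than 1 genotype. Only the limma-voom fit of the 24 libraries used a block, the title number, with the title series as a covariate. Of 36 alternatives, none called any of the 10 genes with the fold threshold, and none passed one HET vs WT at the adjusted p alone. Covariates for spinous, granular and adipocyte scores and the use of 1 library of number 35 were chosen after seeing the data. At the adjusted p alone KO vs WT, the count of the 10 genes that were higher was 0 and became 3 with DESeq2, with number 35 kept apart and with the muscle or granular covariate, 5 with 24 libraries as separate samples, 4 with these in limma-voom, and 0 to 4 without single replicates (4 without WT replicate 4 or without KO replicate 3); 1 gene, Aloxe3, was lower with the granular or spinous covariate. KO vs HET it became 1 (DESeq2, muscle), 6 and 3 (24 libraries, edgeR and voom), and 1 gene, Aloxe3, was lower with the spinous covariate (-0.49). The edgeR fit of 24 libraries as separate samples counts repeat libraries as replicates, whereas the limma-voom fit models them through the block. The share of all genes that passed at the adjusted p alone is not given for the alternatives. The counts of genes in this section thus have no background to be judged by.

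The route count KO vs WT of 3 higher became 9 with RLE factors, limma-voom or number 35 from series 2 only, 8 without the filter, 18 with DESeq2 or number 35 kept apart, 1 with only these genotypes fitted, 30 and 23 with 24 libraries, 0 in series 1, 10 in series 2, and 16, 12 and 0 with the muscle, granular and adipocyte covariates (2 to 21 without single replicates). The 1 lower, Ormdl1, became 0 at an adjusted p of 0.05, with only these genotypes, in series 1, with the dermal, Y-linked or adipocyte covariate and with number 35 from series 1 only, 2 with muscle, and 3 with granular or spinous (0 to 1 without single replicates). KO vs HET, the 1 higher, Grhl3, became 2 with total count scaling, no filter, limma-voom, number 35 apart or the spinous covariate, 11 with DESeq2, 0 at 0.05, with only these genotypes, in series 1 and with the dermal covariate, 34 and 20 with 24 libraries, and 6 with muscle or granular (0 to 10 without single replicates). There, 0 lower became 1 with total count scaling, no filter, DESeq2, limma-voom, number 35 apart or 24 libraries in voom, 3 with 24 libraries or the spinous covariate, and 2 with muscle or granular (0 to 1 without single replicates).

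Signs of log2 fold changes turned as follows. KO vs WT, Alox12b was -0.20 with the spinous covariate, Pnpla1 -0.0066 (granular), -0.27 (spinous) and -0.032 to 0.30 without single replicates, and Sdr9c7 -0.021, -0.22 and -0.032 to 0.26. HET vs WT, Abca12 was -0.050 with 24 libraries, -0.046 with the Y-linked covariate, -0.15 in series 1, -0.0049 with number 35 from series 1, -0.011 (spinous) and -0.15 to 0.16 without single replicates; Nipal4 was -0.0145 (series 1), -0.0152 (Y-linked), -0.0079 (spinous) and -0.049 to 0.11; Sdr9c7 was -0.0019 (total count), -0.0086 (series 2), -0.0151 (Y-linked and number 35 from series 2), -0.022 (spinous) and -0.047 to 0.092. Without single replicates Alox12b ran from -0.26 to 0.0495, Cers3 from -0.0152 to 0.11, Cyp4f39 from -0.28 to 0.11 and Pnpla1 from -0.15 to 0.047. KO vs HET, with the spinous covariate Alox12b was -0.050, Pnpla1 -0.18 and Sdr9c7 -0.19, Sdr9c7 was -0.030 (granular) and -0.042 to 0.25 without single replicates, and Aloxe3 was 0.050 (24 libraries), 0.11 (series 1), 0.016 (dermal) and -0.31 to 0.11. The lipoxygenase ratio was -0.50 KO vs WT and -0.51 KO vs HET in series 1, where 3 against 3 cannot pass, and -0.59 to -0.47 and -0.52 to -0.44 without single replicates. HET vs WT it was 0.0097 in series 1 and -0.11 to 0.015 without single replicates, and Pnpla1 to Abhd5 KO vs HET ran from -0.065 to 0.11. The causes were not tested. Over all genes, calls KO vs WT ran from 1 to 126 higher and 2 to 127 lower.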
